A study of Mus musculus with 23 samples.

Results

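The response of mouse epiblast-like cells with intact Wnt3 to recombinant WNT3A was followed over 12, 24 and 36 h of aggregate culture. The members are the 6 arrays whose titles give Wnt3+/+ cells with Wnt3a or with no added cytokine at these times, of 23 arrays in the series, and each WNT3A array was set against the untreated array of the same time. Epiblast-like cells (EpiLCs) are made from embryonic stem cells and stand in for the epiblast before gastrulation. The cells came from 1 male C57BL/6 embryonic stem cell line that carries the BV transgenes, a membrane-bound Venus reporter under Blimp1 elements, and all arrays compared here share this background. All cells had been kept in medium with CHIR99021, a GSK3 inhibitor that activates WNT signalling, and were then turned into EpiLCs with activin A and bFGF. They were cultured as floating aggregates in serum replacement medium with LIF, either with WNT3A at 50 ng/ml or with no cytokine. The rest of the series holds the same line with BMP4 at 500 ng/ml, a Wnt3-/- line without cytokine, with BMP4 or with WNT3A with and without BMP4, and both lines at 0 h. Each condition and time is 1 array, so a difference at 1 time is between 2 single arrays and has no replicate check. The 3 times stand in for replicates in every test, and each genotype is a single line.

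WNT ligands bind Frizzled and LRP receptors and keep beta-catenin from being degraded, so that it joins TCF and LEF factors on target genes. Many targets act back on the pathway, among them the transcription factor Sp5 and the scaffold protein Axin2. In the embryo WNT3 from the posterior epiblast and visceral endoderm is needed for the primitive streak, from which mesoderm and definitive endoderm arise, and WNT3A acts later in the posterior growth zone that feeds the presomitic mesoderm.

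The cells were checked against their label. Pou5f1, a core pluripotency factor, read 8599, 9027 and 8659 untreated at 12, 24 and 36 h and 9153, 9089.6 and 5914 with WNT3A, and the DNA methyltransferase gene Dnmt3b read 12855, 11347 and 8135 and 10156, 5753 and 4039.6. Both were thus bright on all 6 arrays, and lowest on the WNT3A array of 36 h. The other 3 markers of the epiblast state were lowest there too: Pou3f1 read 4482, 3040.3 and 2195 untreated and 1687, 1563 and 383 with WNT3A, Fgf5 1053, 873 and 1428 and 699, 1082 and 218, and Otx2 568, 431 and 116 and 206, 31.8 and 25.3. Otx2 was below the array median of 36.8 or more on the WNT3A arrays of 24 and 36 h, so those arrays lacked that marker of the labelled state above the median, while the other 4 were above it on all 6 arrays. The 4 genes chosen as marks of the WNT3A response, Sp5, Foxa2, Wnt5b and Ntn1, were higher with WNT3A at each time, Foxa2 by 0.38 log2 units at 36 h and the others by 0.75 or more at all times. These 4 were chosen with earlier results of these data known, so their direction is no check of the label. Signals are the deposited values, and differences are on the log2(signal + 16) scale after quantile normalization, which understates changes of dim genes. The Wnt3 probe set read 11.5, 17 and 83.3 untreated and 32.7, 56.9 and 25.6 with WNT3A. The ratio of the 3' to the 5' Gapdh probe set, which rises when RNA is short or the copying stops early, was 4.03 on the WNT3A array of 24 h, the highest of all 23 arrays, and 2.30 on the untreated array of 36 h. It was 1.36 and 1.53 on the untreated and WNT3A arrays of 12 h, 1.40 untreated at 24 h and 1.53 with WNT3A at 36 h, and its part in the differences at 24 and 36 h was not tested. In bulk aggregates, fewer cells of a type and less RNA of a gene per cell cannot be told apart.

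The promoters of 3 called genes are shown first, because they differ in the TCF/LEF core motif. Sp5 led the response at 12 h, Nkx1-2 followed it closely, and Dkk1 was called at 36 h. Each run covers 250 bases before to 50 after the gene's start (RefSeq, GRCm38.p6), and capitals mark CTTTGA or its reverse complement TCAAAG.
Sp5 (chr2:70474673-70474972, plus strand): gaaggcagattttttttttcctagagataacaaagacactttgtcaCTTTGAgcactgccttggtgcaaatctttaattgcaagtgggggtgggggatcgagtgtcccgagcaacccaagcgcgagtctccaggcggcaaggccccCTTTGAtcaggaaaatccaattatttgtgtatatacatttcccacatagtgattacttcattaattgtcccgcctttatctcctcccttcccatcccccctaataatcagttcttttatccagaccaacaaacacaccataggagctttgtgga
Nkx1-2 (chr7:132599588-132599887, minus strand): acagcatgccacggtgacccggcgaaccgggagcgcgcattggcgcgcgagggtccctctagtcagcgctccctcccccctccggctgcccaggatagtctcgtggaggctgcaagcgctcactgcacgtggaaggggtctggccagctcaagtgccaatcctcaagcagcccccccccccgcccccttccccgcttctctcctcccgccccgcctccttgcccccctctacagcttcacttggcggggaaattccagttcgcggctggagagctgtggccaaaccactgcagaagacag
Dkk1 (chr19:30549447-30549746, minus strand): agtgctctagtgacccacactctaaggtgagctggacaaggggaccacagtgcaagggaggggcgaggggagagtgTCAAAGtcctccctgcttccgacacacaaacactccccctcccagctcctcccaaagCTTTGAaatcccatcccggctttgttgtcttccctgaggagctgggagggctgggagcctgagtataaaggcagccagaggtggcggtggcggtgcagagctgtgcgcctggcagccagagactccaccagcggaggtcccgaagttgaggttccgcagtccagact
The Sp5 and Dkk1 windows hold the motif at 2 places each, and the Nkx1-2 window holds none. Among 27018 promoters of this length 16.2% hold the motif at least once and 1.81% at 2 places or more. Of the 99 genes fitted higher at 12 h 67 have a promoter in the table and 10 of them hold the motif, which is 14.9%, against 12.1% of the 10688 tested genes that have one. It is 12.6% of 253 genes fitted higher at 36 h and 8% of 25 genes called higher in the mean over the times. At 2 places or more it is held by 3 of the 67 higher at 12 h (4.48%), Sp5 among them, and by 120 tested genes (1.12%). At 36 h it is held so by 1 of the 253 (0.395%), which is Dkk1. Of genes fitted lower, 5.56% of 18 at 12 h and 11.7% of 163 at 36 h hold the motif at least once, and none at 2 places. No binding was measured, and a match is a description of the letters only.

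The number of genes that stood apart grew with time and the genes were mostly not those of the earlier times. Of 13255 genes tested, 129 were at least 2-fold higher and 57 at least 2-fold lower with WNT3A at 12 h, which is 0.973% and 0.43%. At 24 h 249 were higher and 179 lower (1.88% and 1.35%), and at 36 h 399 were higher and 162 lower (3.01% and 1.22%). Of the genes higher at 12 h 74 were also higher at 24 h (57.4% of the earlier and 29.7% of the later list), but 28 were also higher at 36 h (21.7% and 7.02%). Higher at all 3 times were 22 genes, and lower at all 3 times were 7. Gene models named by clone, locus or Riken numbers were skipped in the rankings of genes. Among the other genes the 5 largest negative differences at 12 h were in Slc35d3, Fgf4, Foxd3, Slitrk1 and Mro. At 24 h they were in Otx2, Slc35d3, Irx3, Foxd3 and Fgf15, and at 36 h in Eomes, Car4, Eras, Fgf5 and Pou3f1. Slc35d3 and Foxd3 thus recurred. The skipped gene model Gm9564 differed by -2.52, -2.84 and -0.85 at the 3 times.
Most genes that were higher at 12 h were brighter on the late untreated array than at the start of the culture. Of the 129 genes 102 were at least 2-fold brighter on the untreated array of 36 h than on the 0 h array, neither of which was used to choose them, which is 79.1% against 4.88% of all 13255 genes. Their median difference between these arrays was 1.96 log2 units, against -0.02 over all genes. At 36 h 51 of the 129 were no longer above 0 in the difference between WNT3A and no cytokine. Of the 399 genes higher at 36 h, 319 differed by less than 0.5 at 12 h.

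**Figure D1:**
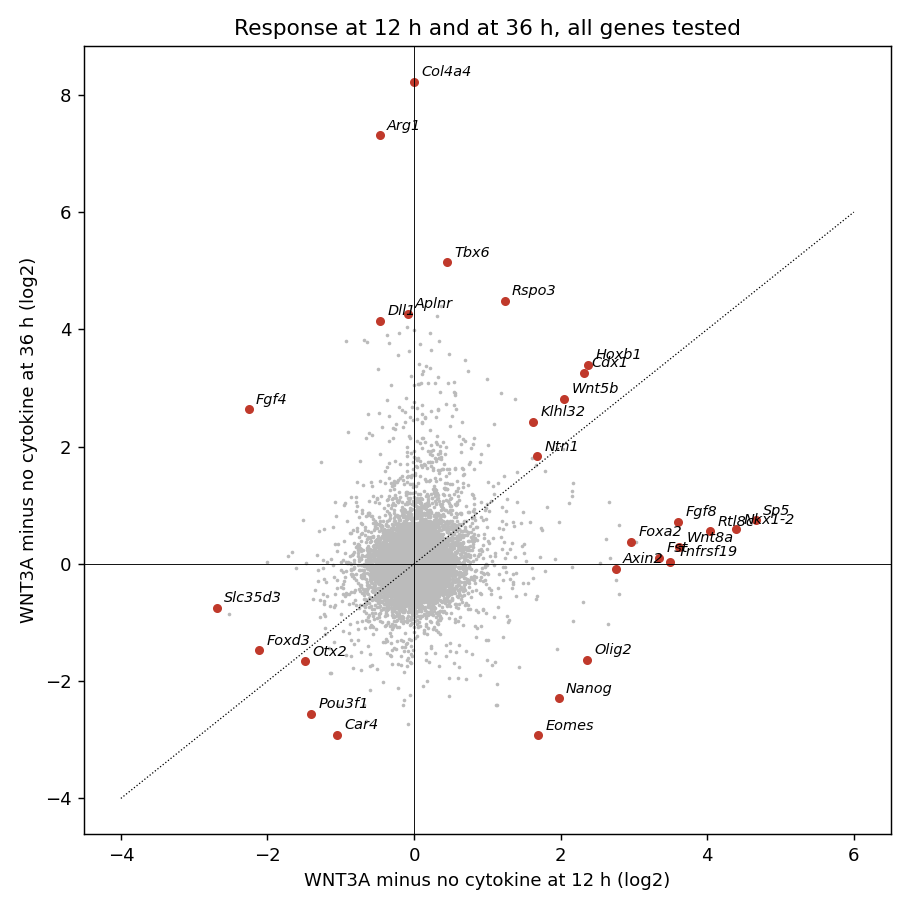
WNT3A minus no cytokine (log2) at 12 h on the horizontal and at 36 h on the vertical axis for all 13255 genes, each from 2 single arrays, with genes named in the text in red and a dotted line where both are equal. Sp5 and Nkx1-2 lie far right near 0 on the vertical axis, Tbx6 and Col4a4 lie high near 0 on the horizontal axis, and Nanog and Eomes lie right and below.

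The genes with the largest fitted differences at 12 h were Sp5, Nkx1-2, Rtl8c, Fst and Wnt8a, of which Sp5 is on the list of WNT feedback and target genes. Sp5 (gene ID 64406), a transcription factor gene that WNT signalling turns on, read 27.5, 181 and 3541 untreated and 1098, 3641 and 5914 with WNT3A. It was thus far above the untreated level at 12 and 24 h, by 4.66 and 4.25 log2 units, and by 0.75 at 36 h, when the untreated signal had gone from 27.5 to 3541. Axin2, the feedback scaffold of beta-catenin degradation, read 61, 274 and 996 untreated and 523, 1370.0 and 949 with WNT3A. The WNT3A array was higher at 12 and 24 h and level with the untreated one at 36 h.
Nkx1-2 (gene ID 20231), a homeobox gene of the posterior growth zone, read 48.2, 648 and 3769 untreated and 1389, 5257 and 5793 with WNT3A. Wnt8a, a ligand gene of the early streak, read 129, 787 and 2647 untreated and 1872, 3373 and 3214 with WNT3A. Tnfrsf19, a receptor gene and WNT target, read 47.8, 488 and 1978 untreated and 734, 1409 and 2034 with WNT3A. All 3 were above the untreated arrays at each time, and their differences shrank from 4.40, 3.62 and 3.50 at 12 h to 0.59, 0.29 and 0.04 at 36 h. Rtl8c, a retrotransposon-derived gene, read 27.7, 272 and 1911 untreated and 719, 2077 and 2759 with WNT3A, and Fst, which encodes the activin antagonist follistatin, read 123, 695 and 4299.6 untreated and 1468, 4973 and 4705 with WNT3A. A dimmer probe set of Fst kept a difference of 1.54 at 36 h where the one used gave 0.10. Fgf8, the growth factor gene of the streak, read 30.9, 187 and 410.1 untreated and 572, 568 and 704 with WNT3A, and the endoderm and node factor Foxa2 read 30.7, 129.8 and 1160.1 untreated and 357, 1499 and 1520.2 with WNT3A. Foxa2 kept its difference to 24 h, and both were less than 1 log2 unit above the untreated array at 36 h.

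**Figure D2:**
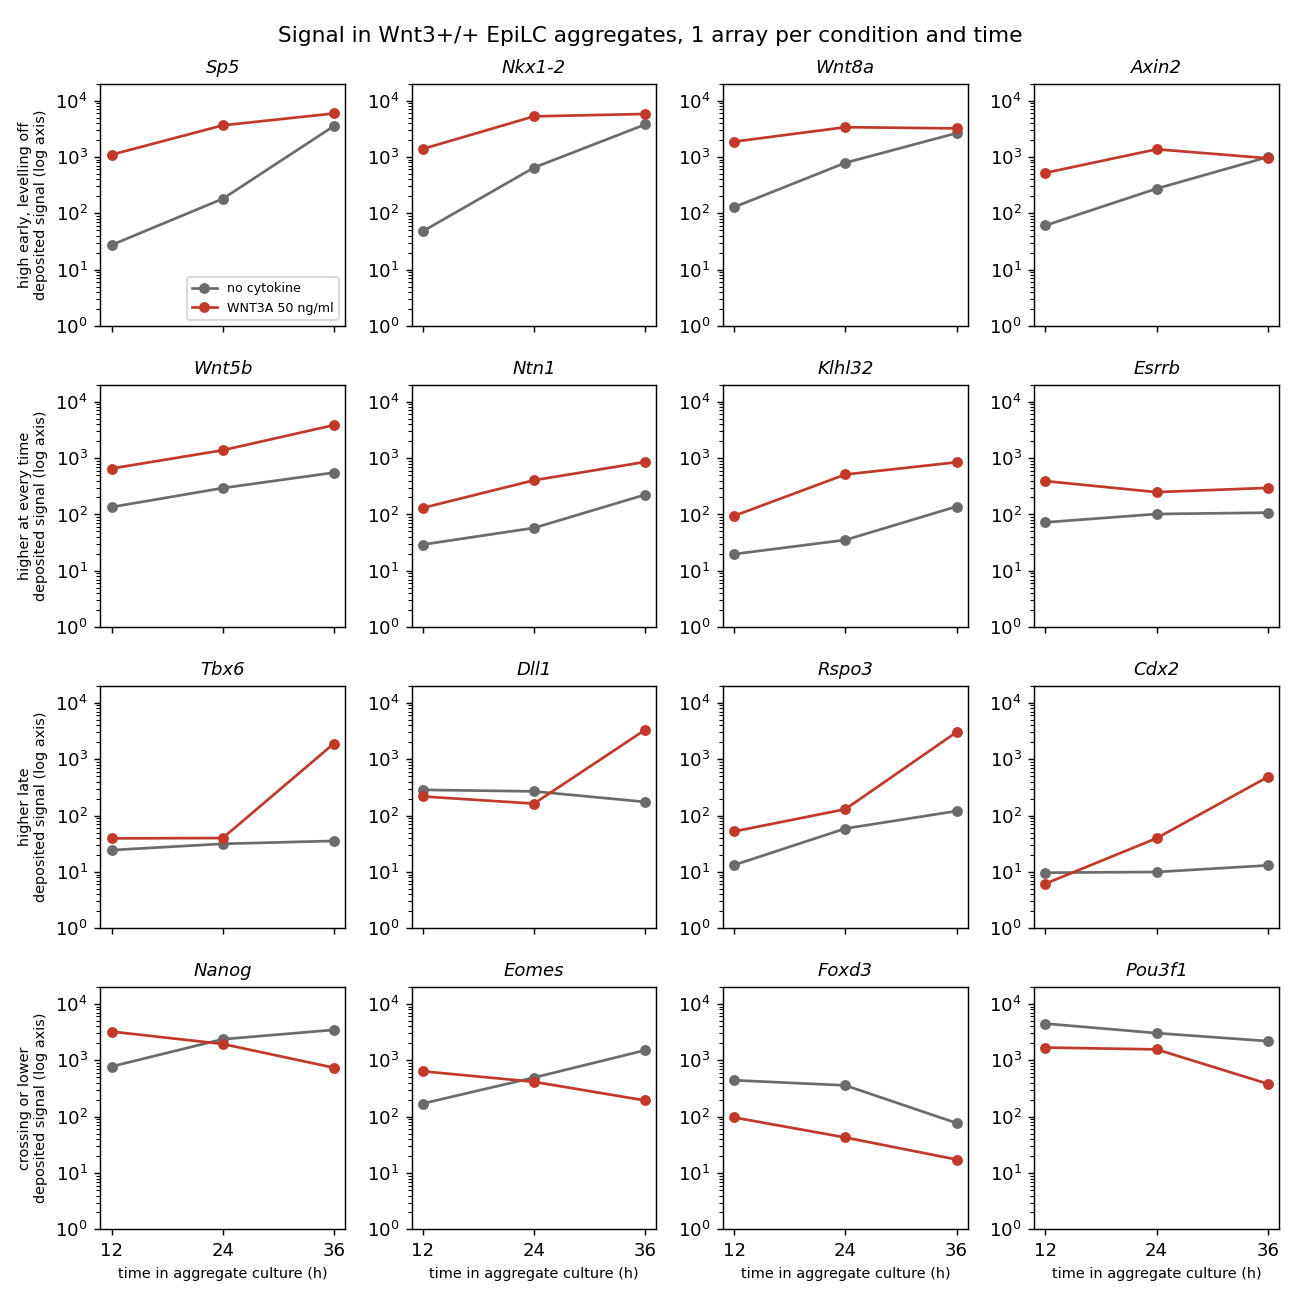
Deposited signal (log axis) against time in aggregate culture for 16 genes, grey without cytokine and red with WNT3A, 1 array per point and no error bars because there are no replicates. In the top row the untreated line reaches the WNT3A line by 36 h, or comes close to it, as for Sp5 at 3541 and 5914, while in the second row the lines stay apart and in the third row they part late.

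These early responses were tested with a straight course over time in each condition, beside a curvature shared by all conditions. The spread was taken over all 7 conditions cultured for 12 to 36 h (SE, n = 3 times per condition, limma with Benjamini-Hochberg adjustment). At 12 h 121 genes were called, 0.913% of those tested, 99 higher (0.747%) and 22 lower (0.166%). The fitted difference at 12 h was 5.18 ± 0.47 for Sp5 (adjusted p = 0.000247), 4.56 ± 0.32 for Nkx1-2 (adjusted p = 2.34e-05) and 4.23 ± 0.24 for Rtl8c (adjusted p = 9.84e-06). Fst stood at 3.71 ± 0.36 (adjusted p = 0.000379) and Wnt8a at 3.66 ± 0.23 (adjusted p = 1.31e-05). Lower at 12 h were Slc35d3, a nucleotide sugar transporter gene, at -3.09 ± 0.45, Foxd3 at -2.41 ± 0.34, Slitrk1, which encodes a neuronal membrane protein, at -2.08 ± 0.42, Dcn, the gene of the proteoglycan decorin, at -1.71 ± 0.21 and Far2, a fatty acyl-CoA reductase gene, at -1.63 ± 0.33. Slitrk1 read 65.8, 62.2 and 64.9 untreated and 5.17, 17.6 and 68.6 with WNT3A, so both conditions were level at 36 h. Without the untreated array of 12 h 39 genes were called and without the WNT3A array of 12 h 51, and 24 and 28 of these were among the 121.
The change of the response with time was called for 74 genes (0.558%), 27 with a higher (0.204%) and 47 with a lower response at later times (0.355%), and 26 of the 47 were called higher at 12 h. Per 12 h the response changed by -1.96 ± 0.37 for Sp5 (adjusted p = 0.0413), -1.90 ± 0.24 for Nkx1-2 (adjusted p = 0.0103), -1.67 ± 0.18 for Wnt8a, -1.73 ± 0.23 for Tnfrsf19 and -1.74 ± 0.19 for Rtl8c. Axin2, at -1.42 ± 0.33, did not pass (adjusted p = 0.0955). This count rests on the arrays at the ends of the course: without either the untreated or the WNT3A array of 36 h no gene passed by limma, without the untreated array of 12 h 1 did, and without the WNT3A array of 24 h 127 did. With all arrays 1363 genes had an unadjusted p under 0.05.

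Some genes of the pathway itself were called and most were not. Of 18 feedback and target genes tested, 4 were called higher at 12 h (Sp5, Axin2, Tnfrsf19 and the Sp5 relative Sp8), 1 lower and 13 not, beside 0.747% and 0.166% of all genes, and the list median of the single-array difference was 0.35, 0.16 and 0.07 at 12, 24 and 36 h, against 0.00, 0.02 and -0.03 over all genes. The one called lower was Tcf7l1, the TCF factor that holds targets down, at -0.85 ± 0.16 at 12 h (adjusted p = 0.0302). Tcf7l1 read 2135, 1846 and 1218 untreated and 1296, 1379.6 and 1687 with WNT3A, so it was below the untreated array at 12 and 24 h and above it at 36 h. The textbook targets Lef1, Ccnd1, Myc, Nkd1, Notum, Znrf3 and Rnf43 were not called at 12 or 36 h. Lef1 read 190.0, 237 and 359.5 untreated and 274, 258 and 630.4 with WNT3A, and Ccnd1, which encodes cyclin D1, read 2120.2, 2610.3 and 2352 untreated and 2165, 1992 and 1965 with WNT3A. At 36 h Dkk1, a secreted WNT antagonist, was the single list member of the 18 called, at 2.14 ± 0.52 (adjusted p = 0.0422). Over all genes 2.44% were called higher and 1.54% lower at that time. Dkk1 read 44.9, 51.3 and 265 untreated and 61, 155 and 1193 with WNT3A, so the WNT3A arrays were above the untreated ones from 24 h on.
Of 11 WNT ligand genes tested 2 were called higher at 12 h (Wnt5b and Wnt8a), beside 0.747% of all genes. At 36 h 4 were called higher, beside 2.44%, and none was called lower at either time. The 4 were Wnt5b, Wnt3a itself, Wnt5a and Wnt6. Wnt3a read 158, 155 and 185 untreated and 132, 271 and 1664 with WNT3A, and Wnt5a, a ligand of posterior and noncanonical signalling, read 18, 17 and 29.7 untreated and 19.4, 23.8 and 402 with WNT3A. Both stood out on the 36 h array and their fitted differences there were 2.85 ± 0.43 (adjusted p = 0.00386) and 2.64 ± 0.54 (adjusted p = 0.0176).
Of 25 receptor, secretion and antagonist genes 2 were called higher at 12 h, both of the ligand-secreting machinery: Porcn, the acyltransferase of WNT proteins, at 2.23 ± 0.31, and Wls, their carrier, at 1.23 ± 0.20. Porcn read 74.5, 290.0 and 568 untreated and 402, 734 and 572 with WNT3A, and Wls read 170.1, 530.1 and 1113 untreated and 498, 838 and 1746 with WNT3A. Rspo3, which encodes a secreted enhancer of WNT signalling, was called higher at 36 h, and the receptor genes Ror1 and Fzd9 lower, at -1.42 and -0.99. Over all genes the shares were 0.747% higher at 12 h, and 2.44% higher and 1.54% lower at 36 h. Averaged over the times the receptor gene Fzd7 was lower by a mean difference of -1.12 ± 0.22 (adjusted p = 0.0355). Fzd7 read 2504, 2165 and 1144 untreated and 1296, 644 and 749.6 with WNT3A.

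The response was also tested as the mean over the 3 times. With time as an additive block 64 genes were called (0.483%), 34 higher (0.257%) and 30 lower (0.226%), all 64 in the same direction at each time, and 1840 had an unadjusted p under 0.05. With a straight course per condition, the form used for 12 and 36 h, the mean was called for 601 genes, the 64 among them. Klhl32 (gene ID 212390), a kelch repeat gene, led with 2.46 ± 0.39 (SE, n = 3 times; adjusted p = 0.0235). Klhl32 read 19.8, 35.3 and 138 untreated and 94.4, 512 and 843 with WNT3A, while 2 further probe sets of it differed by at most 0.91 at any time. The WNT ligand gene Wnt5b read 135, 294 and 553 untreated and 653, 1379.6 and 3848 with WNT3A, a mean difference of 2.34 ± 0.43 (adjusted p = 0.0281). Ntn1, which encodes the guidance molecule netrin-1, read 29.2, 57.7 and 224 untreated and 131, 404 and 855 with WNT3A, a mean difference of 2.00 ± 0.40 (adjusted p = 0.0376). At each time the WNT3A arrays of all 3 genes lay above the untreated ones by 1.62 log2 units or more. Over all times the groups overlapped, since for Klhl32 and Ntn1 the WNT3A array of 12 h lay below the untreated array of 36 h.
Sh3pxd2a, a podosome scaffold gene, read 50.6, 133 and 695 untreated and 292, 949 and 1846 with WNT3A, and the growth factor gene Pdgfa read 69.6, 169 and 383 untreated and 367, 755 and 815 with WNT3A. The naive pluripotency factor Esrrb read 72.5, 102 and 108 untreated and 391, 249 and 296 with WNT3A and its untreated signal spanned a narrow range over the times. Their mean differences were 2.08 ± 0.33, 1.74 ± 0.32 and 1.52 ± 0.26. The remaining 6 of the 12 leading genes were Tpd52l1, Ap3b2, Mmd, Tdrd5, Tmem185a and Dock11, with mean differences from 1.19 to 1.67. Tdrd5, a tudor domain gene of germ cells, read 133, 179 and 247 untreated and 300.2, 648 and 699 with WNT3A. A second probe set of Wnt5b differed by 2.30, 2.31 and 2.94 at the 3 times, while dim ones of Ntn1 and Pdgfa differed by at most 0.44 at any time. Of 2 further probe sets of Esrrb 1 differed by 1.77, 1.58 and 0.80 and the other by at most 0.24.

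**Figure D3:**
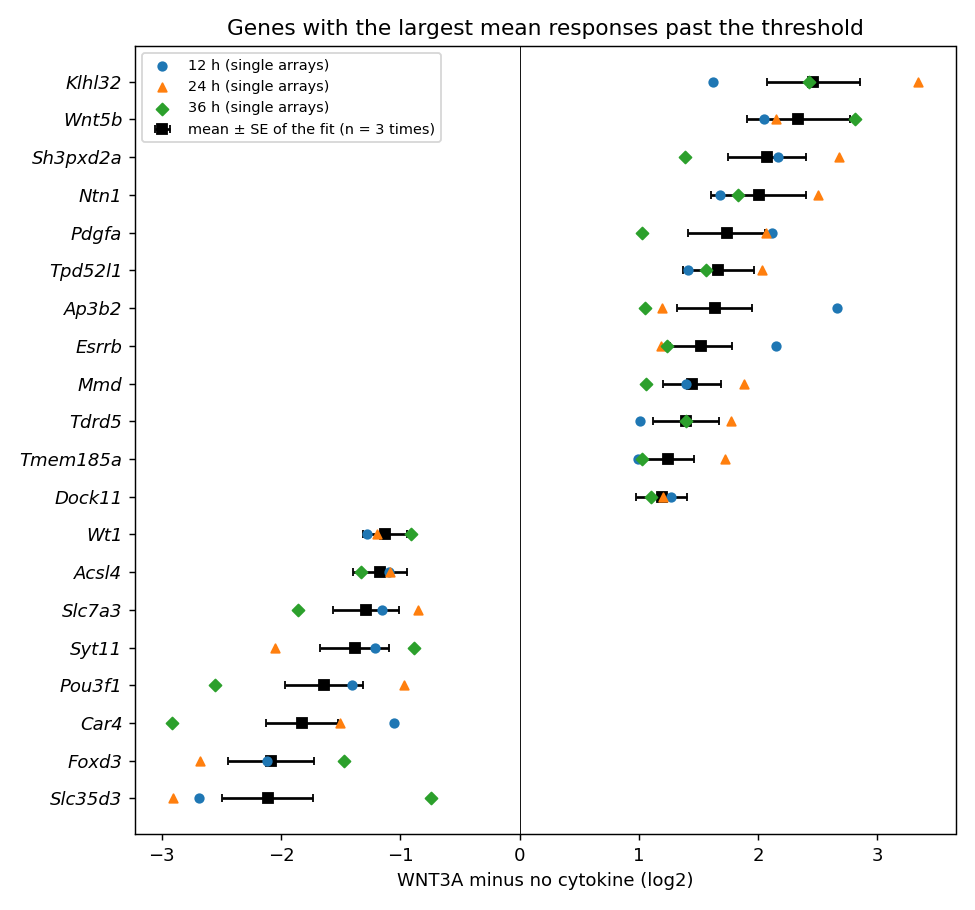
Mean difference WNT3A minus no cytokine (log2, black squares, SE of the fit, n = 3 times) with the difference at each single time as coloured points, for the 12 higher and 8 lower genes with the largest mean differences past the threshold. Gene models named by clone, locus or Riken numbers are left out, among them Gm9564 at -2.07. All points of a gene lie on 1 side of 0, and for Klhl32 they range from 1.62 at 12 h to 3.34 at 24 h.

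The lower genes of this test included markers of the primed epiblast and others of no listed group. Slc35d3 read 600.5, 388 and 134 untreated and 85.6, 37.8 and 74.5 with WNT3A, a mean difference of -2.11 ± 0.38 (adjusted p = 0.027). Foxd3, a forkhead gene of the epiblast, read 443, 359.5 and 77.2 untreated and 97, 42.8 and 17.4 with WNT3A, a mean difference of -2.09 ± 0.36 (adjusted p = 0.0255). The carbonic anhydrase gene Car4 read 5595, 6252 and 6383 untreated and 2628, 2179.8 and 904 with WNT3A, a mean difference of -1.82 ± 0.30. The Foxd3 groups overlapped over the times, since its untreated signal of 36 h lay below the WNT3A signal of 12 h, while those of Car4 did not overlap. Slc7a3, an amino acid transporter gene, read 6166, 4390.0 and 3692 untreated and 2702, 2402 and 1068 with WNT3A, and Pou3f1, the POU factor that marks EpiLCs, read 4482, 3040.3 and 2195 untreated and 1687, 1563 and 383 with WNT3A. Pou3f1 differed by -1.64 ± 0.33 (adjusted p = 0.0403), and its second probe set by -2.13, -2.14 and -2.52 at the 3 times. Also lower were Syt11, Acsl4 and Wt1, at -1.38, -1.17 and -1.13.
Calls of this test depended on single arrays. Without the WNT3A array of 24 h, that of the highest Gapdh ratio, none passed, without the untreated array of 24 h none, without the untreated array of 12 h or the WNT3A array of 36 h 3, and without the untreated array of 36 h 149. In a fit of the 6 arrays alone, or without the 6 Wnt3-/- arrays of conflicting labels, none passed either.

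At 36 h the genes of the posterior embryo stood out. 527 genes were called at 36 h, 3.98% of those tested, 323 higher (2.44%) and 204 lower (1.54%). Of 16 posterior and presomitic mesoderm genes tested 12 were called higher at 36 h and none lower. At 12 h 5 were called higher, beside 0.747% of all genes. The list median of the single-array difference was 1.14, 1.25 and 2.87 at the 3 times, against 0.00, 0.02 and -0.03 over all genes. A gene that is bright only with WNT3A can pass or miss the filter on dim genes by its response, and of 3 further members left out Hes7, a segmentation clock gene, read 377 with WNT3A and 1 untreated at 36 h. Tbx6 (gene ID 21389), which specifies presomitic mesoderm, read 24.4, 31.6 and 35.5 untreated and 39.4, 39.9 and 1898 with WNT3A. Dll1, the Notch ligand gene of the presomitic mesoderm, read 286, 269 and 175 untreated and 218, 163 and 3327 with WNT3A. Rspo3 read 13.3, 58.9 and 120.3 untreated and 52.3, 129.8 and 3019 with WNT3A. At 12 and 24 h Tbx6 was near the untreated level and Dll1 below it. All 3 were 4.15 log2 units or more above the untreated array at 36 h, so the calls of Tbx6 and Dll1 rest on that pair of arrays.
The fitted values at 36 h were 4.29 ± 0.75 for Tbx6 (adjusted p = 0.00752), 3.86 ± 0.72 for Rspo3 (adjusted p = 0.0111) and 3.31 ± 0.70 for Dll1 (adjusted p = 0.0212). Other members differed earlier. Cdx1, a caudal homeobox gene of the posterior axis, read 17.3, 18 and 282 untreated and 150.1, 744 and 2778 with WNT3A, and was called at both ends, at 2.89 ± 0.53 and 3.83 ± 0.53. Cdx2 read 9.71, 9.99 and 13.1 untreated and 6.19, 39.7 and 484 with WNT3A. Cdx4 read 3.6, 5.7 and 10.9 untreated and 5.21, 22.8 and 111 with WNT3A, and Evx1, a homeobox gene of the posterior streak, read 22.9, 25.6 and 170.1 untreated and 72.5, 229 and 1418 with WNT3A. In all 3 the WNT3A arrays of 24 and 36 h were above the untreated ones, in Cdx4 at low signal. Dll3 and Fgf17 were called too, at 2.71 and 1.00. The 4 not called at 36 h were Nkx1-2, Wnt8a, Greb1 and Msgn1, of which Msgn1, a presomitic bHLH gene, read 30.5, 23.3 and 24.9 untreated and 31.6, 33.4 and 137 with WNT3A.
Of 11 Hox genes tested 5 were called higher at 36 h, beside 2.44% of all genes, and none lower. At 12 h none was called, beside 0.747% of all genes called higher. The 5 were Hoxa2, Hoxa3, Hoxb1, Hoxb2 and Hoxb3. A further 12 with a probe set were left out by the filter on dim genes and not tested, and 3 of these were at least 2-fold higher on the WNT3A array of 36 h: Hoxb9 read 284 there and 4.79 untreated, Hoxb5 86.8 and 1, and Hoxa4 71.0 and 4.96. Hoxb1 read 12.9, 36.3 and 689.8 untreated and 133, 1361 and 7132 with WNT3A. Hoxb2 read 20.4, 41.9 and 331 untreated and 79.3, 714 and 2385 with WNT3A and Hoxa2 read 7.21, 8.88 and 86.2 untreated and 34.3, 126 and 272 with WNT3A. These 3 were already 2.56 log2 units or more above the untreated array at 24 h, the time of the Gapdh ratio of 4.03. Hoxb3 read 1, 3.78 and 8.57 untreated and 9, 19.8 and 189 with WNT3A and Hoxa3 read 28.4, 27.5 and 36.3 untreated and 37.3, 41.9 and 171 with WNT3A, both late. Hoxa5, Hoxa7, Hoxa9, Hoxb4, Hoxc6 and Hoxd3 were not called, with single-array differences at 36 h from -0.17 to 0.47.
Aplnr, the apelin receptor gene of nascent mesoderm, read 11.4, 11.4 and 349.7 untreated and 9.71, 434 and 6794 with WNT3A, with a fitted difference of 4.92 ± 0.70 at 36 h (adjusted p = 0.00278). Of 17 primitive streak and nascent mesoderm genes 4 were called higher at 36 h (Aplnr, Tbx6, Evx1 and Lhx1), and Eomes and Tdgf1 lower. Over all genes 2.44% were called higher and 1.54% lower. Mixl1, a homeobox gene of the streak, read 8.88, 18.1 and 545 untreated and 34.8, 362 and 413 with WNT3A, highest above the untreated array at 24 h and below it at 36 h, and was not called. Apln, the ligand gene of Aplnr, was not called either. Apln read 85, 189 and 1808 untreated and 383, 2226 and 1924 with WNT3A, so its largest difference was at 24 h too, and the arrays of 36 h were level.

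**Figure D4:**
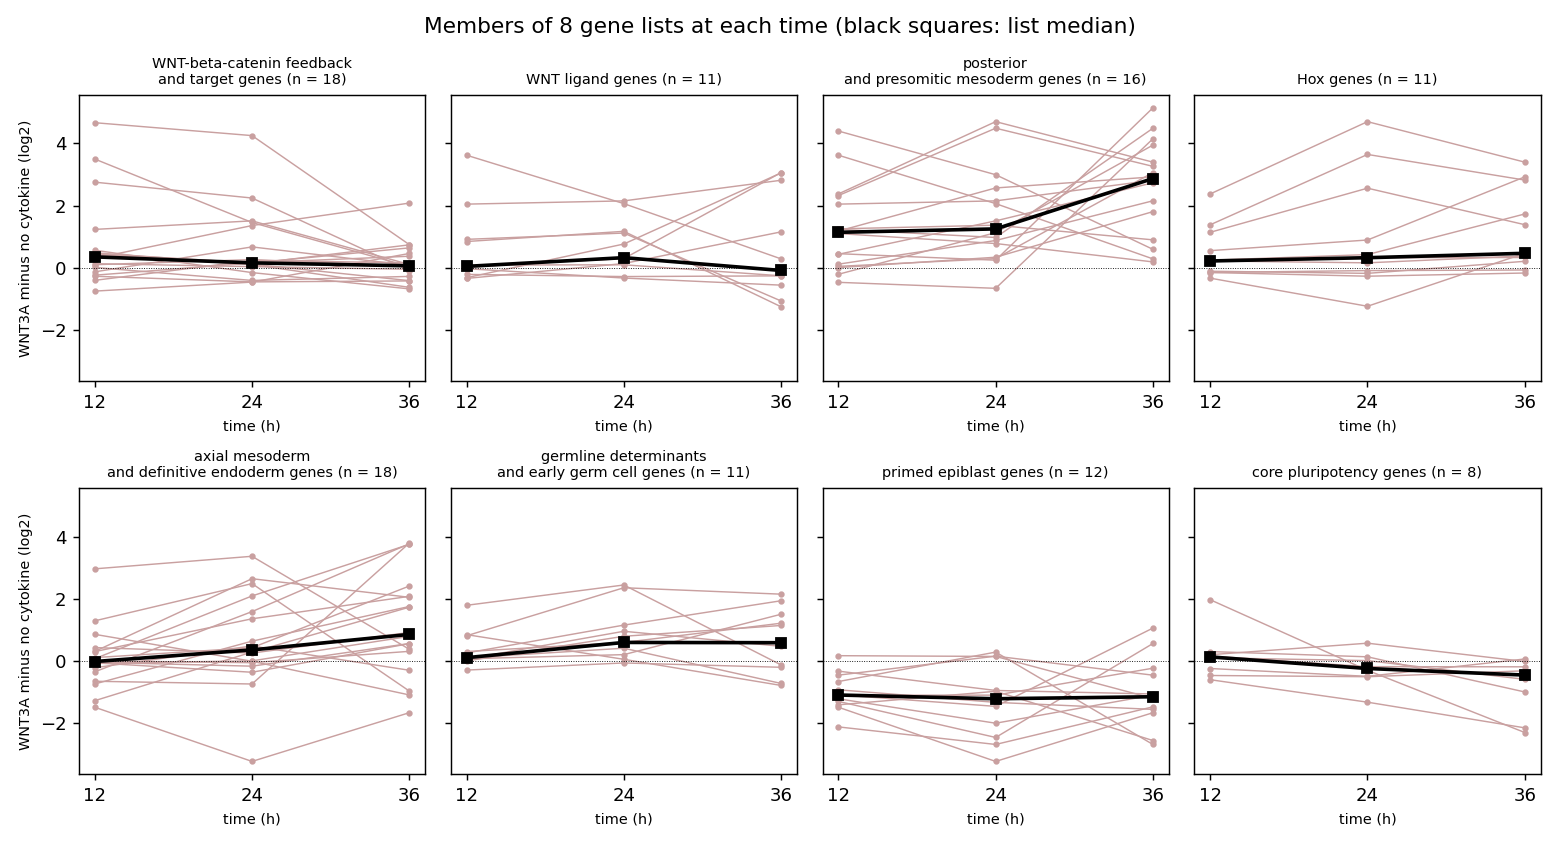
WNT3A minus no cytokine (log2) at 12, 24 and 36 h for the tested members of 8 gene lists, 1 thin line per gene, with the list median as black squares. The median of the posterior list goes from 1.14 to 2.87, that of the primed epiblast list stays near -1.1 and that of the core pluripotency list goes from 0.13 to -0.45.

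Axial mesoderm and definitive endoderm genes split. Of 18 tested 7 were called higher at 36 h, 2 lower and 9 not, beside 2.44% and 1.54% of all genes. At 12 h Foxa2 alone was called, higher, beside 0.747% of all genes. The 2 called lower at 36 h were Otx2 and Trh. At that time Trh stood at 13.10 untreated and 12.01 with WNT3A on the log2 scale. Gsc was above the untreated array at 12 and 24 h and below it at 36 h, without a call. Lhx1, a homeobox gene of the organizer, read 4.44, 1.85 and 19.3 untreated and 5.5, 58.1 and 508 with WNT3A. Foxj1, the ciliogenesis factor of the node, read 20.1, 17.4 and 21.1 untreated and 12.8, 82.7 and 541 with WNT3A, and Chrd, which encodes the BMP antagonist chordin, read 73.5, 97 and 357 untreated and 98.4, 695 and 1531 with WNT3A. All 3 were above the untreated arrays at 24 and 36 h and near them at 12 h. The keratin genes Krt8 and Krt18 crossed: Krt18 read 2419, 2257 and 2210.3 untreated and 1017, 2778 and 7231 with WNT3A, and its response changed by 1.50 ± 0.22 per 12 h (adjusted p = 0.0201). Foxa1 and Dkk1 were the other 2 called higher. The endoderm genes Sox17, Gata4, Gata6 and Hhex were not called, and Sox17 read 71, 66.3 and 73 untreated and 71.5, 56.5 and 121 with WNT3A.
Some genes of no list were dim untreated and bright on the WNT3A array of 36 h. Col4a4, a basement membrane collagen gene, was listed at the floor of 1 on all 3 untreated arrays and read 1, 171 and 5184 with WNT3A, and 2 further, dim probe sets of it differed by 0.33 and 0.11 at 36 h. Arg1, the arginase gene, read 11.2, 6.68 and 5.94 untreated and 3.63, 74.5 and 3591 with WNT3A, and Scara3, a scavenger receptor gene, read 16.4, 21 and 31.6 untreated and 25.8, 41.9 and 1053 with WNT3A. Aldh1a2, the enzyme that makes retinoic acid in early mesoderm, read 44, 37.3 and 32.4 untreated and 45.6, 57.3 and 803 with WNT3A, and Cited1, a transcriptional coregulator gene, read 83.3, 52.7 and 65.8 untreated and 64, 89.9 and 1278 with WNT3A. All 5 were near the untreated level at 12 h. The single-array differences at 36 h were 4.40, 3.98 and 3.90 for Scara3, Aldh1a2 and Cited1, while the size of those of Col4a4 and Arg1 is set by the offset, since their untreated signals are at the floor or near it. Calls at 36 h rest on both arrays of that time. Without the untreated one, whose Gapdh ratio is 2.30, its values are carried on from 12 and 24 h, and 17 genes were called in place of 527. Without the WNT3A array of 36 h it was 21 and when leaving out the 3 arrays with the top Gapdh ratios it was 9. Of the posterior list 1 gene was called without the untreated array of 36 h, none without the WNT3A array of 36 h, and 12 without the WNT3A array of 24 h.

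Some genes changed sides. Nanog, a core pluripotency factor, read 776, 2369 and 3468 untreated and 3236, 1951 and 739 with WNT3A. With WNT3A it was thus above the untreated array at 12 h and below it at 36 h, and the fitted differences were 1.93 ± 0.36 and -2.34 ± 0.36 (adjusted p = 0.0272 and 0.00427). Eomes, a T-box gene of the early streak, read 171, 495 and 1509.7 untreated and 639, 416 and 194 with WNT3A, with differences of 1.70, -0.27 and -2.92 at the 3 times. A second probe set of Eomes gave 3.66, 0.40 and -4.82. Olig2, a bHLH gene best known from neural progenitors, read 302, 798 and 1924 untreated and 1771, 2179.8 and 630.4 with WNT3A. The response changed per 12 h by -2.31 ± 0.42 in Eomes, -2.13 ± 0.28 in Nanog and -2.0 ± 0.33 in Olig2, all past the threshold. Fgf4, a growth factor gene of pluripotent cells, went the opposite way and did not pass (adjusted p for the change = 0.094): Fgf4 read 1176, 252 and 67.6 untreated and 246, 61 and 553 with WNT3A.

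Several genes of the primed epiblast were lower. Of 12 tested 3 were called lower in the mean (Foxd3, Pou3f1 and Dnmt3a), 2 at 12 h and 5 at 36 h, and none higher. Over all genes the shares called lower were 0.226%, 0.166% and 1.54% in these tests. The list median of the single-array difference was -1.09, -1.21 and -1.15 at the 3 times, against 0.00, 0.02 and -0.03 over all genes. Otx2, the head and epiblast homeobox gene, read 568, 431 and 116 untreated and 206, 31.8 and 25.3 with WNT3A, so the WNT3A array was lower at each time and the untreated array of 36 h lay below the WNT3A array of 12 h. Its fitted difference was -2.21 ± 0.46 at 36 h (adjusted p = 0.0184). The methyltransferase gene Dnmt3a read 3822, 1872 and 982 untreated and 1783, 891 and 849 with WNT3A, level with the untreated array at 36 h, and 2 of its 4 further probe sets differed by at most 0.53 at any time. Zic5, a zinc finger gene, read 1089.9, 1098 and 689.8 untreated and 605, 437 and 234 with WNT3A. Fgf5, a growth factor gene of the epiblast, read 1053, 873 and 1428 untreated and 699, 1082 and 218 with WNT3A and was not called, and Sall2, at a mean difference of -1.43 ± 0.35, was not either (adjusted p = 0.0819). Fgf15 and Sox4 were lower at 12 and 24 h and higher at 36 h, and neither was called.
Of 8 core pluripotency genes 4 were called lower at 36 h, beside 1.54% of all genes: Nanog, Utf1, Tdgf1 and Pou5f1. Utf1, a chromatin gene of pluripotent cells, read 6252, 5330.3 and 1710.3 untreated and 4039.6, 2106 and 391 with WNT3A. Sox2 read 2120.2, 2352 and 2179.8 untreated and 1563, 1664 and 1783 with WNT3A and was not called. Eras, a Ras gene of embryonic stem cells, read 2856, 3692 and 2665 untreated and 2702, 2320.1 and 416 with WNT3A, and Ugt8a, a glycosyltransferase gene, read 252, 407 and 244 untreated and 163, 103 and 31.6 with WNT3A. Both were called lower at 36 h, at -2.48 ± 0.45 and -2.50 ± 0.24.
Of 15 naive pluripotency genes Esrrb and Zfp42 were called higher in the mean, Esrrb and Tfcp2l1 at 12 h, and Esrrb, Dppa2 and Dppa3 at 36 h. Over all genes the shares called higher were 0.257% in the mean, 0.747% at 12 h and 2.44% at 36 h. Zfp42, which encodes Rex1, read 201, 150.1 and 114 untreated and 391, 258 and 156 with WNT3A, and Tfcp2l1 read 32.9, 86.8 and 465 untreated and 206, 446 and 239 with WNT3A. Tfcp2l1 was above the untreated array at 12 and 24 h and below it at 36 h. Klf2 read 201, 304 and 252 untreated and 596, 734 and 286 with WNT3A and was not called.

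Some germ cell genes were higher at 36 h. Of 11 genes that specify or mark early germ cells 4 were called higher at 36 h and none at 12 h: Ifitm1, Ifitm3, Dnd1 and Dppa3. Over all genes 2.44% were called higher at 36 h and 0.747% at 12 h. Kit, Elavl2 and Dazl lay below the untreated array at 36 h, without a call. Ifitm1, a membrane protein gene of nascent mesoderm and germ cell precursors, read 765, 671 and 2120.2 untreated and 1438, 3492 and 9089.6 with WNT3A, and Dnd1, an RNA-binding factor of germ cells, read 431, 375 and 307 untreated and 564, 867 and 1243 with WNT3A. The difference was 0.81, 2.36 and 2.15 for Ifitm1 and 0.26, 1.16 and 1.94 for Dnd1 at the 3 times, so both were farther above the untreated arrays at 24 and 36 h than at 12 h. Prdm1, which encodes Blimp1, read 46.2, 40.5 and 44 untreated and 50.6, 93.1 and 70 with WNT3A, and Prdm14 read 7.26, 6.54 and 5.06 untreated and 8.4, 9.58 and 45.9 with WNT3A. Neither was called, and Tfap2c, the third determinant, read 58.1, 83.3 and 416 untreated and 249, 526 and 396 with WNT3A, with the untreated array level at 36 h.
For the next lists, the shares over all genes were 0.747% called higher at 12 h, and 2.44% higher and 1.54% lower at 36 h. No list was tested as a set against these shares. Of 15 Notch pathway genes Dll1, Dll3 and Notch1 were called higher at 36 h and Notch3 at 12 h. Of 6 PDGF genes Pdgfa, Pdgfc and the receptor gene Pdgfrb were called higher at 12 h, and Pdgfd at 36 h. Pdgfrb read 5.46, 14.1 and 263 untreated and 57.7, 224 and 556 with WNT3A. Of 18 FGF and ERK feedback genes Fgf8, Fgf17 and Il17rd were called at 12 h, and Fgf17, Dusp4 and Etv4 at 36 h, all higher. Dusp4, a phosphatase gene that ERK turns on, read 345, 261 and 523 untreated and 263, 592 and 3126 with WNT3A. Of 13 cadherin switch and mesenchymal genes Cdh2, the N-cadherin gene, and Vim were called higher and Epcam lower at 36 h, and Cdh1, the E-cadherin gene, read 7643, 6383 and 7082 untreated and 6841, 6339 and 6383 with WNT3A without a call. Cdh2 read 82.7, 156 and 313 untreated and 131, 286 and 1898 with WNT3A. Of 9 neural ectoderm genes Gbx2 and Olig2 were called higher at 12 h and Sox1 lower at 36 h, and of 11 Nodal pathway genes Tdgf1 alone was called, lower at 36 h. Of 7 netrin and receptor genes Ntn1 was called at both ends, and the receptor gene Unc5a lower at 36 h.

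Against BMP4 in the same cells, the WNT3A arrays differed by the mean over the 3 times in 99 genes (0.747%), 59 higher (0.445%) and 40 lower (0.302%) with WNT3A. The split depended on the scaling, with 81 higher and 30 lower on the values as deposited and 98 higher and 29 lower with array medians centred. Foxa2 was higher by 4.32 ± 0.66 (adjusted p = 0.00453) and Ntn1 by 2.40 ± 0.40 (adjusted p = 0.00768). Foxa2 read 26.4, 27.1 and 39.4 with BMP4, so the groups did not overlap, and Ntn1 read 43.4, 46.2 and 78.8. Esrrb, Klf2 and the Nodal antagonist gene Lefty1 were higher by 1.29, 2.12 and 1.75. Of 13 BMP-SMAD response genes 9 were lower and none higher, among them Id2 by a difference of -4.53 ± 0.26 (adjusted p = 9.12e-08), Id1 by -3.91 ± 0.43 and the homeobox gene Msx2 by -4.25 ± 0.55. Sp5 and Wnt5b did not pass in this comparison (adjusted p = 0.748 and 0.82): Sp5 read 1024, 1924 and 2385 with BMP4 and Wnt5b 498, 891 and 3666. None of the 16 posterior, 11 Hox or 17 streak genes tested passed either. Among the 64 genes called in the mean response 9 were called against BMP4. A missing call does not show equal levels. Wls was lower with WNT3A than with BMP4, by -0.98 ± 0.15. Without the 24 h arrays of all conditions 1 gene was called, and without the WNT3A array of 24 h 30.
Within the WNT3A response itself 2 of the 13 BMP-SMAD genes were called higher at 36 h and 2 lower, beside 2.44% and 1.54% of all genes. Id1, a helix-loop-helix inhibitor gene that BMP signalling turns on, read 162, 182 and 304 untreated and 189, 349.7 and 2077 with WNT3A, at 2.53 ± 0.33 at 36 h (adjusted p = 0.00217), and Msx1 read 44.6, 42.5 and 78.2 untreated and 71.5, 73 and 501 with WNT3A. Id2 read 117, 171 and 228 untreated and 76.1, 86.8 and 55.7 with WNT3A, and Smad7, an inhibitor of the SMAD pathway, read 152, 219.8 and 228 untreated and 276, 315 and 44.6 with WNT3A, both lower at 36 h.

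The response was also set against that of the Wnt3-/- line, which carries no intact Wnt3; the comparison shares its Wnt3+/+ arrays with those above. For 6 of its arrays the title and the array name disagree on whether BMP4 was present, so both groups are called by their titles. Against the arrays titled BMP4 and WNT3A, with their own untreated arrays subtracted, no gene was called by limma (0%; 577 had an unadjusted p under 0.05, and the smallest adjusted p was 0.223). Sp5 read 1045.5, 2150 and 5833 on those arrays, Foxa2 380.0, 1552 and 2385, Wnt5b 639, 904 and 3192, and Ntn1 123, 294 and 855.1. The WNT3A arrays of the Wnt3+/+ line lay beside these, at 1098, 3641 and 5914 for Sp5, 357, 1499 and 1520.2 for Foxa2, 653, 1379.6 and 3848 for Wnt5b and 131, 404 and 855 for Ntn1. The untreated arrays differed more: Sp5 read 27.3, 26.0 and 24.8 in the Wnt3-/- line and 27.5, 181 and 3541 in the Wnt3+/+ line. The Sp5 response was smaller in the Wnt3+/+ line by a difference of -2.57 ± 1.21, short of the threshold (adjusted p = 0.9997).
Against the arrays titled WNT3A 8 genes were called (0.0604%), 4 higher and 4 lower (0.0302% each) in the Wnt3+/+ response. Lower were Id2 by a difference of -4.45 ± 0.37 (adjusted p = 2.26e-05), Id1 by -3.98 ± 0.61, Smad6 and Stoml3, and higher were Ramp2, AI662270, Trio and Akap9. Id1 read 5480, 7591 and 9345 on the arrays titled WNT3A. Line, genotype and the disputed label cannot be told apart here.

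Markers of other cell types were followed in the same 6 arrays. Of 8 extraembryonic endoderm genes tested none was called at 12 or 36 h, and the summed signal of the 13 measured lay between 2390 and 2990 untreated and between 2180 and 2500 with WNT3A. Afp, Ttr and Sox7 were at 21 or less throughout, while Sparc read between 1150 and 1950, Apoa2 between 292 and 564, Hnf4a between 119 and 182 and Dab2 between 132 and 179. Of 6 trophoblast genes Cdx2 and Krt7 were called higher at 36 h, and the sum of 9 lay between 334 and 418 untreated and between 362 and 1020 with WNT3A. Elf5, Tpbpa and Esx1 stayed at 19 or less, while Tead4 read between 86.2 and 111 and Plac1 between 48.2 and 64. Of 5 fibroblast genes Dcn was called lower at 12 h, and the sum of 9 lay between 1120 and 1200 untreated and between 719 and 1410 with WNT3A. Col1a1 and Postn were at or near the floor of 1 on several arrays, while Fbln1 read between 347 and 923 and Col1a2 between 105 and 234. Of 11 p53 response and stress genes none was called at either time. Over all genes 0.913% were called at 12 h and 3.98% at 36 h.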

How the data were processed

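RNA of 23 samples was hybridised to Affymetrix Mouse 430 2.0 arrays after amplification of the cDNA, per the labels' protocols. The authors deposited 1 linear intensity per probe set, and its summary method and scaling are not given in these sources. Array medians lay between 36.8 and 41.4, and 2.93% of values stood at a floor of 1. Depth does not apply to arrays, and their number limits the precision.

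Intensities were quantile normalized over the 23 arrays and taken as log2(value + 16). A single gene is named for 34958 of 45101 probe sets, several genes for 932 and no gene for 9211, and the brightest probe set stood for each of 18193 genes. Genes above the array median on at least 3 arrays were kept, 13255 in all. Limma 3.58.1 in R 4.3.3, with a trended prior variance and Benjamini-Hochberg adjustment at 0.05, fitted 7 conditions with time as an additive block over 21 arrays (12 residual degrees of freedom). A second fit had a straight course over time per condition and a quadratic time term shared by all conditions (6 residual degrees of freedom). It gave the response at 12 h, at 36 h and its change per 12 h, so the difference between conditions is straight over time. The fits were tested on simulated data, and matplotlib 3.10.9 drew the plots. Differences at 1 time are single arrays against single arrays, counted from 2-fold and not tested. P-values measure the spread between times and conditions, not between cultures.

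Groups followed the array titles. Named genes are the 12 higher and 8 lower with the largest mean response, 5 each way at 12 and 36 h and at each single time, those with the largest change over time, and called members of the lists. Gene models named by clone, locus or Riken numbers were skipped in these rankings. The members and the 23 lists (326 genes, 252 kept) were chosen with earlier results of these data known. Scaling, offset, filter, probe set choice, arrays left out, weights, trend, block and thresholds were varied.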

Additional observations from a re-analysis of the deposited data

Results flagged for a closer look

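The response to WNT3A differed between times, by the test of its change over the course (limma, straight course per condition, n = 3 times), in 74 genes. The response grew per 12 h by 4.11 log2 units for Col4a4, 3.89 for Arg1, 2.13 for Cited1, 2.06 for Foxj1 and 1.99 for Aldh1a2. It changed by -2.31 for Eomes, -2.13 for Nanog, -2.0 for Olig2, -1.96 for Sp5 and -1.90 for Nkx1-2. In Sp5 and Nkx1-2 the WNT3A arrays were above the untreated ones throughout and the untreated signal was the one that approached, whereas in Nanog, Eomes and Olig2 the sign of the difference turned between 12 and 36 h. The sizes for Col4a4 and Arg1 are set by the offset, since their untreated signals are at or near the floor: with an offset of 64 they were 3.15 and 2.91, and with an offset of 1 5.65 and 5.18, without a call. For Col4a4 the other 2 probe sets did not show the difference.

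The response also differed between the Wnt3+/+ line and the Wnt3-/- arrays titled WNT3A in 8 genes. 3 of them, Id1, Id2 and Smad6, are BMP-SMAD response genes, and these are the arrays whose array names give BMP4 as well, against their titles.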

How the results depend on the processing

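No named result changed its sign under any alternative that could be fitted, but counts of calls depended strongly on the arrays. The mean response was called for 64 genes, and for 31 with no filter, 37 with array weights, 31 with a 2-fold limit beside the adjusted p, 22 in a fit of the 9 Wnt3+/+ arrays, 34 without the 3 arrays of highest Gapdh ratio (12 of them among the 64) and 601 under a straight course per condition (all 64 among them). It was called for 0 in a fit of the 6 arrays alone, 0 without the 6 arrays of conflicting labels and 0 without the time block; leaving out arrays gave 0 to 268. The response at 12 h was called for 121 genes, for 40 in a fit of the 6 arrays and 35 of the 9, and leaving out single arrays gave 39 to 96. The response at 36 h was called for 527, for 293 and 277 in those fits, for 9 without the 3 arrays of highest Gapdh ratio, and for 17 to 588 with single arrays left out. The change with time was called for 74, for 12 with no filter, 32 with probe sets averaged per gene, 39 without the variance trend, 35 and 11 in the fits of 6 and 9 arrays, 8 without the 3 arrays, and 0 to 127 with arrays left out. Against BMP4 the count of 99 became 302 with array weights, 28 in the fit of 9 arrays, 51 without the 6 arrays of conflicting labels, 25 without the 3 arrays, 23 without the time block, 54 with the 2-fold limit, and 1 to 145 with arrays left out. Against the Wnt3-/- arrays titled WNT3A the count of 8 became 5 on values as deposited, 4 with medians centred, 2 with no filter, 5 with the mean of probe sets, 18 with array weights, 3 without the 3 arrays, 1 without the time block, 5 with the 2-fold limit and 0 to 33 with arrays left out; against those titled BMP4 and WNT3A it was 0, and 0 to 6. The counts of single-time differences moved with the offset: with 1 in place of 16, 214 genes were higher and 106 lower at 12 h and 246 lower at 36 h, and with 64, 78 higher and 29 lower at 12 h, 83 lower at 24 h and 96 lower at 36 h. With the mean of probe sets 105 were lower at 36 h. A 4-fold limit left 30 higher and 5 lower at 12 h, 51 and 12 at 24 h, and 118 and 19 at 36 h. A 2-fold limit on the single arrays, added after the data were seen, left 98 of the 121 and 375 of the 527. Besides settings with fewer arrays or genes, the cause was not tested. Of the single genes, 24 named in the mean response kept their call in 310 of their alternatives and lost it in 290, 41 at 12 h in 639 and 220, and 76 at 36 h in 1238 and 352. For the change with time 23 genes kept their call in 257 and lost it in 203. No paired analysis was possible because the labels give no replicate numbers; time served as the block. A course could not be fitted when all arrays of a time were left out. There are no replicate arrays, so dim signals and single-time values carry no error.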

Other observations

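Among the 323 genes called higher in the fitted response at 36 h (limma) were 11 interferon-inducible genes, none of them called at 12 h. They were picked by name from the called genes after the values were seen, so their number and direction are fixed by that choice, and interferon-inducible genes that were tested and not called were not counted. They were Gbp2, Gbp3, Igtp and Irgm2, which encode GTPases of cell-intrinsic immunity, Psmb8, a subunit of the immunoproteasome, Usp18, Isg20, Ifih1, Ifi35, Rtp4 and Parp12. Their single-array differences ran from 2.09 to 3.63 log2 units at 36 h and from -0.29 to 0.99 at 12 h. Gbp2 read 53.4, 63.6 and 187 untreated and 102, 724 and 1978 with WNT3A. Usp18 read 9.99, 9.25 and 11.5 untreated and 8.82, 23.9 and 362 with WNT3A. Gbp2 was thus above the untreated array from 12 h on and Usp18 from 24 h on, and both were highest on the WNT3A array of 36 h. Psmb8 read 39.9, 68.6 and 136 untreated and 97.7, 294 and 1379.6 with WNT3A.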
